A study of Mus musculus with 104 samples.

Results

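The Zscan4 family was followed by its mRNA counts in bulk RNA-seq of mouse pluripotent stem cells (mPSCs), totipotent blastomere-like cells (mTBLCs) and their derivatives. The members sought were the gene rows Zscan4a, Zscan4b, Zscan4c, Zscan4d, Zscan4e and Zscan4f of the deposited count tables. Of these 6 members 5 were measured in every library, out of 24958 genes in all, and Zscan4e was not analysed here. Levels are in CPM, counts scaled to a library total of 1 M gene counts, given for each member and for the family sum, which adds the 5 members before any test.

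Zscan4 genes encode proteins with a SCAN domain and zinc fingers. They are transcribed in the mouse embryo around zygotic genome activation at the late 2-cell stage, and in stem cell cultures in a small, changing fraction of cells that resemble that stage. The proteins are known for their part in telomere lengthening through recombination and for genome stability, and the transcription factor Dux switches the genes on. In bulk RNA a lower family level can come from fewer cells that express the family or from less RNA per such cell, and these cannot be told apart here.

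The 104 libraries form 24 groups. Cells in SFH (n = 23), S/L (n = 20) or NTF medium (n = 7) were sampled by the hour. The submitters named these courses as differentiation of mTBLCs, and the labels do not give the passage or medium they started from. Derived cells were TELC (n = 3), PreLC (n = 3), both labelled as SFH medium, blastoids in TNKM medium (n = 2), embryoid bodies in serum medium from mTBLCs (n = 4) or from TC1 cells (n = 4), and cells titled EB-TSC in TSC medium (n = 1). Libraries titled ZHBTc4, the name of a stem cell line whose Pou5f1 is shut off by doxycycline, were from 2MYCP with doxycycline (n = 5), 2MYC with doxycycline (n = 2), S/L with doxycycline (n = 1), 2MYCP alone (n = 1) and S/L alone (n = 1). Their cell line label reads TC1-GFP all the same, and for the 2MYC libraries doxycycline is named in the treatment label but not in the title. Lines from blastomeres of ICR embryos in 2iLP medium carry titles with 4nM (n = 2) or 2-5nM (n = 2), at passages 4 and 5. Variants of the 2MYCP culture were 2MYP, titled without C (n = 2), gelatin (n = 2), a Ctnnb1 knock-out (n = 1) and the inhibitor ICG001 (n = 1). These were set against mTBLCs in 2MYCP (n = 7, passages 1 to 19), cells in 2MYC medium (n = 6) and mPSCs in S/L medium (n = 3), of which 1 is titled as passage 0 of the 2MYCP series. There was 1 library of ICR E3.5 blastocysts. The submitters named the 2MYP data as without CHIR. Apart from the ICR samples and the knock-out, the labels give wild-type TC1-GFP cells, and they do not expand the names of the media. They also do not say that libraries of a group are separate cultures, so p-values measure the spread between these libraries.

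On chromosome 7 of the GRCm38 annotation (GENCODE release vM21) 9 Zscan4 genes lie within 820 kb, from 10794242 to 11614112. Zscan4b (10900740 to 10905050), Zscan4d (11161374 to 11166159) and Zscan4a (10794242 to 10799057) are on the minus strand, and Zscan4c (11005745 to 11010547) and Zscan4f (11397915 to 11402318) on the plus strand. Zscan4a is annotated as an unprocessed pseudogene. The annotated transcripts of the 5 members are near copies. Their identity over the aligned bases was lowest between Zscan4b and Zscan4d, at 96.6%, and highest between Zscan4c and Zscan4f, at 99.5%. Of all stretches of 100 bases of the Zscan4f transcript, 89.5% occur letter for letter in another Zscan4 transcript, and so do 78.7% for Zscan4b, 72.8% for Zscan4c, 39.1% for Zscan4a and 29.6% for Zscan4d. The split of reads between members is therefore uncertain, most of all for Zscan4f, Zscan4b and Zscan4c, and the sum is the firmer measure.

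The promoters are shown because the members move together in most comparisons. RefSeq windows (GRCm38.p6) were found for 4 of the 5 members, and the 200 bases before each annotated start read as follows, 5′ to 3′ on the strand of the gene. Capitals mark TATAAA and TGATTNAA on either strand.
Zscan4b, chr7:10905051-10905250, minus strand: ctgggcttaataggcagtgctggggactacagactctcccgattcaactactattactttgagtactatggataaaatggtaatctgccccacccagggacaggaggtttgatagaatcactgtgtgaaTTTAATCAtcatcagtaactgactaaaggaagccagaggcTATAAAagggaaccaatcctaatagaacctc
Zscan4c, chr7:11005545-11005744, plus strand: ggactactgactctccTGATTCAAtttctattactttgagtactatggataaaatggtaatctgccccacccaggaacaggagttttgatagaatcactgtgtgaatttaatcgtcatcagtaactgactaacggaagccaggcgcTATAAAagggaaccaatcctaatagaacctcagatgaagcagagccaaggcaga
Zscan4d, chr7:11166149-11166348, minus strand: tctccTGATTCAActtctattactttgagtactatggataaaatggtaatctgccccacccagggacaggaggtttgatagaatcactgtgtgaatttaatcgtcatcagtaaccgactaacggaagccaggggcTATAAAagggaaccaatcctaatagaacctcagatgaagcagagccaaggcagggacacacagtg
Zscan4f, chr7:11397715-11397914, plus strand: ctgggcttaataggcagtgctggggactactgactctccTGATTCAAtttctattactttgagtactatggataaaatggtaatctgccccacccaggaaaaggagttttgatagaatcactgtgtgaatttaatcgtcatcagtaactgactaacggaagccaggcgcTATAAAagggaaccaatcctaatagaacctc
Over the aligned bases of the RefSeq windows, which run 50 bases past the start, the promoters were 95.3% identical between Zscan4b and Zscan4c and 99.3% between Zscan4c and Zscan4f, the ends of the range over 6 pairs. Each held TATAAA once on the strand of the gene, with its first base 31 bases before the start in Zscan4b and Zscan4f, 54 in Zscan4c and 65 in Zscan4d. Of 32851 such windows 8.32% held TATAAA on the strand of the gene and 13.6% on either strand. The full motif known for Dux, a longer palindrome that starts with TGATTNAA, occurred in none of the 4 windows and in 0.0335% of all promoters. Its first 8 letters, TGATTNAA, a shorter form chosen after the letters had been seen, occurred once in each of the 4 and in 2.87% of all promoters. They lay on the strand of the gene 161 bases before the start in Zscan4f, 184 in Zscan4c and 195 in Zscan4d, and on the opposite strand 71 bases before it in Zscan4b. TATAAA and TGATTNAA did not overlap in any of them.

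Libraries held 1.04 to 57 M gene counts (median 22.8 M), and the family had 4 to 30616 counts in each. The 2 mTBLC embryoid body libraries labelled day 3 and day 8 go against the order of the other days. The library labelled day 8 had 944 CPM of Pou5f1 and 28.1 CPM over 9 fibroblast markers, and the one labelled day 3 had 18.9 CPM of Pou5f1 and 4030 CPM of the markers. Ctnnb1, which is targeted in the knock-out, stood at 174 CPM in the library labelled as knock-out and at 893 to 926 CPM in mTBLCs of passages 6 to 19. It was also low, at 222 CPM, in the mPSC library titled as passage 0, and it ran from 199 to 1276 CPM in TELC. The 3 mPSC libraries differed widely in other genes too, with Sox2 at 117 to 892 CPM and Zfp42 at 102 to 564 CPM.

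The lowest group was the blastocyst library, with 0.417 CPM, and the highest was 2MYP, with 664 and 501 CPM. By group medians the order ran from 2MYP (583 CPM) through the S/L course (372 CPM), the SFH course (368 CPM), gelatin (310 CPM) and mTBLCs (261 CPM) to the Ctnnb1 knock-out (227 CPM), ZHBTc4 in S/L (195 CPM) and ICG001 (127 CPM). A middle stretch held the 4nM blastomere-derived lines (120 CPM), ZHBTc4 in 2MYCP with doxycycline (97.1 CPM), the NTF course (60.8 CPM), ZHBTc4 in S/L with doxycycline (58.7 CPM), the 2-5nM lines (47.5 CPM) and ZHBTc4 in 2MYCP (36.6 CPM). EB-TSC (17.8 CPM), mPSCs (15.1 CPM), PreLC (14.1 CPM), 2MYC (11.6 CPM), ZHBTc4 in 2MYC with doxycycline (10.3 CPM) and blastoids (10.0 CPM) followed, above mTBLC embryoid bodies (4.77 CPM), TELC (2.75 CPM) and TC1 embryoid bodies (1.41 CPM). In this order the ranges of 16 of the 23 neighbouring pairs overlapped, so that most neighbours do not differ beyond their spread. Each of the 7 pairs without overlap included a group of 1 library, which has no spread to compare. All 5 members were detected widely, with Zscan4b at 0 counts in 11 libraries, Zscan4f in 4, Zscan4a and Zscan4c in 3 each and Zscan4d in 1. A count of 0 allows up to 3 counts if counts are independent. Low counts were mostly even (a median of 81.9% of genes), so this bound may be too low here.

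**Figure D1:**
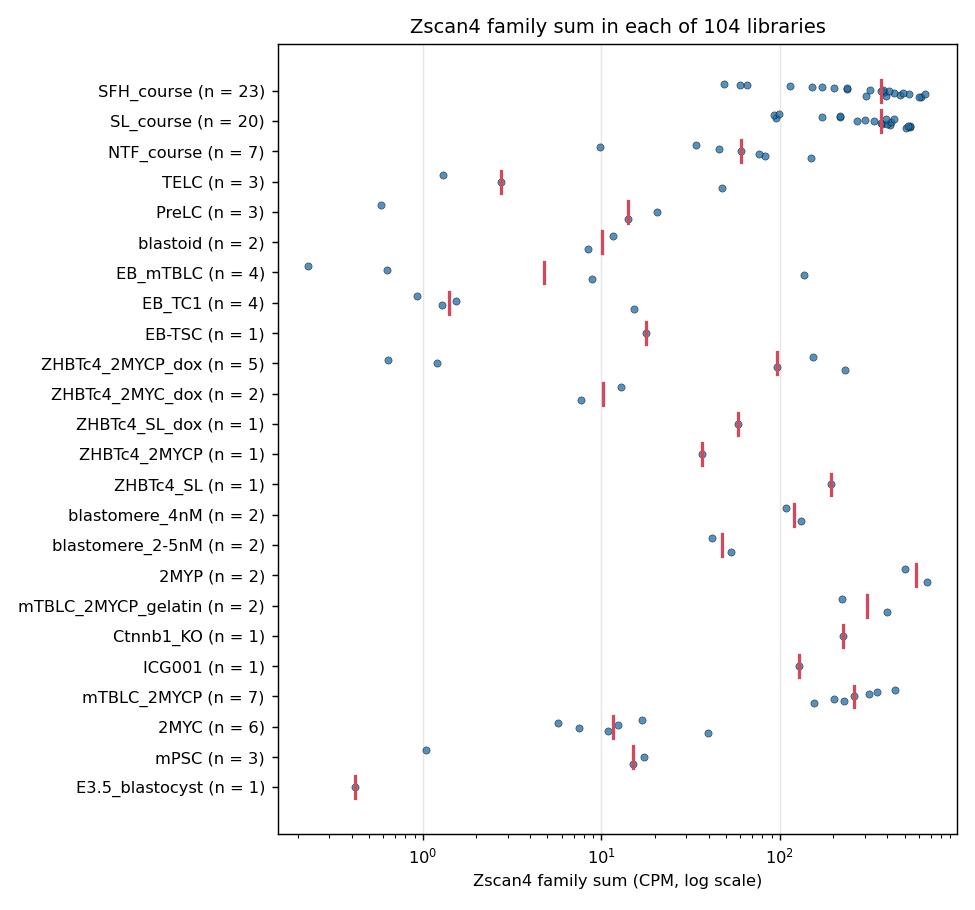
Zscan4 family sum in CPM on a log scale (horizontal axis) in each of 104 libraries, by group (vertical axis), with 1 point per library and a red bar at the group median. The 2MYP libraries lie at 664 and 501 CPM, mTBLCs between 156 and 445 CPM, and mPSCs between 1.05 and 17.4 CPM.

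Zscan4 RNA was far more abundant in established mTBLCs than in mPSCs. The family sum was 261, 318, 349 and 445 CPM in mTBLCs of passages 6, 8, 14 and 19, against 15.1, 17.4 and 1.05 CPM in mPSCs. Every mTBLC library lay above every mPSC library, and 1 mPSC library was far below the other two. This gave a log2 fold change of 4.76 ± 0.74 (SE; edgeR quasi-likelihood test, adjusted p = 0.00195), a 27.2-fold difference. Leaving out 1 library at a time gave 4.19 (without the mPSC library of 1.05 CPM) to 5.51 (without the mPSC library titled as passage 0), with adjusted p = 0.000326 to 0.00761. All 5 members rose, where 9.53% of all genes tested did. Zscan4b, the member of the lowest level, averaged 39.1 ± 9.57 CPM in mTBLCs and 0.952 ± 0.913 CPM in mPSCs (SD, n = 4 and 3), a log2 fold change of 5.46. The smallest change was that of Zscan4c, which averaged 79.1 ± 15.9 CPM in mTBLCs and 3.66 ± 3.30 CPM in mPSCs, a log2 fold change of 4.25 (adjusted p = 0.00502). Per kilobase of transcript, the mean levels in these mTBLCs were 39.2 ± 11.3 CPM for Zscan4d, 37.5 ± 7.13 for Zscan4a, 34.8 ± 6.97 for Zscan4c, 27.6 ± 6.46 for Zscan4f and 21.98 ± 5.38 for Zscan4b (SD, n = 4). Zscan4d and Zscan4a thus overlapped in level, and the measured level of the pseudogene lay within the range of the coding members. These levels rest on how reads of near-identical members were assigned. Zscan4d and Zscan4a, the highest, shared the fewest stretches of 100 bases with other Zscan4 transcripts (29.6% and 39.1%). Zscan4c shared 72.8%, while Zscan4f (89.5%) shared more than Zscan4b (78.7%) but lay above it. The part of read assignment in this order was not tested.

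Within the 2MYCP culture the family rose with passage. The sum stood at 156, 229, 202, 261, 318, 349 and 445 CPM at passages 1, 2, 4, 6, 8, 14 and 19. Only passage 4 was below the passage before it. The slope was 0.37 ± 0.06 log2 units per doubling of passage plus 1 (SE; edgeR, adjusted p = 0.0148), and all 5 members rose, where 4.89% of genes did. Zscan4d had the largest slope, 0.45 ± 0.06, and Zscan4c the smallest, 0.31 ± 0.06. Without passage 1 the slope of the sum was 0.34 (adjusted p = 0.0502), and without passage 19 it was 0.34 (adjusted p = 0.105), so the call rests on the ends of the series. Of the 9 fibroblast markers 5 also rose with passage, and their summed level was 1182 to 1869 CPM at passages 6 to 19 and 517 to 895 CPM at passages 1 to 4. Their part in the slope was not tested.

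Cells in 2MYC held far less Zscan4 RNA than cells in 2MYCP. At matched passages 1, 2, 4 and 6 the family sum was 156, 229, 202 and 261 CPM in 2MYCP, against 39.5, 10.9, 12.4 and 16.9 CPM in 2MYC. The lowest 2MYCP library was above the highest 2MYC library, and the highest 2MYC library was passage 1. With passage as a block the log2 fold change was 3.52 ± 0.38 (SE; edgeR, adjusted p = 0.00392), and all 5 members rose, where 6.33% of genes did. Members changed by 3.14 (Zscan4a) to 4.22 (Zscan4b) log2 units. All 6 libraries in 2MYC ran from 5.70 to 39.5 CPM, with a median of 11.6, against 15.1, 17.4 and 1.05 CPM in mPSCs. These ranges overlapped, the log2 fold change was 0.36 ± 0.75 (SE; edgeR, adjusted p = 0.774), and its 95% interval of -1.12 to 1.83 leaves room for a change in either direction. None of the 4 members tested passed, where 12.1% of genes did, and Zscan4b was too low for the test. Of the 9 fibroblast markers 4 rose in 2MYCP against 2MYC and 2 in mTBLCs against mPSCs, and their part in the family's change was not tested.

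**Figure D2:**
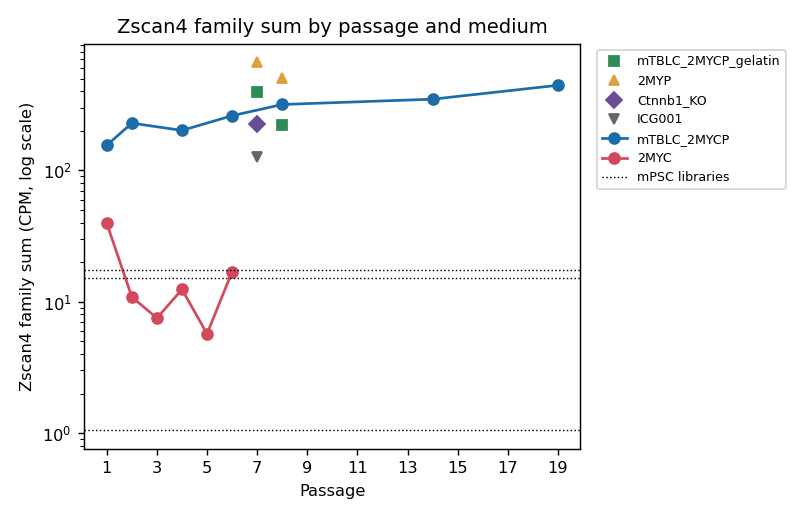
Zscan4 family sum in CPM on a log scale (vertical axis) against passage (horizontal axis) for the 2MYCP culture, its variants and 2MYC, with 1 point per library and dotted lines at the 3 mPSC libraries. The 2MYCP libraries lie between 156 and 445 CPM, and the 2MYC libraries between 5.70 and 39.5 CPM.

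Variants of the established culture had 127 to 664 CPM of the family. The libraries on gelatin had 398 and 222 CPM, against 261 to 445 CPM in mTBLCs of passages 6 to 19; passage 7 lay within this range and passage 8 below it. The log2 fold change was 0.08 ± 0.68 (SE; edgeR, adjusted p = 0.947), with a 95% interval of -1.25 to 1.41. None of the 5 members passed, where 16.3% of genes did. On gelatin the fibroblast markers summed to 27.1 and 16.2 CPM at passages 7 and 8, against 1182 to 1869 CPM in mTBLCs, and 5 and 2 of the 9 were at 0 counts at passages 7 and 8. The family level on gelatin was thus measured with fibroblast markers near 0.
In 2MYP the sum was 664 and 501 CPM, above all 4 mTBLC libraries (261 to 445 CPM). The log2 fold change of 1.005 ± 0.66 did not pass the test (SE; edgeR, adjusted p = 0.338), nor did any member, where 6.31% of genes passed. The 95% interval of the sum, -0.29 to 2.30, leaves room for no change and for a rise of several fold. Zscan4c, Zscan4f, Zscan4a and Zscan4d changed by 1.30, 1.13, 1.003 and 0.95 log2 units, and Zscan4b by 0.05. Of the 9 fibroblast markers 3 fell, Col6a3 by 2.11 ± 0.41, Prrx1 by 2.65 ± 0.40 and Lox by 2.62 ± 0.71 log2 units (edgeR adjusted p = 0.0200, 0.0166 and 0.0478). The 9 markers summed to 235 and 949 CPM in 2MYP, against 1182 to 1869 CPM in mTBLCs, and their part in the family's level was not tested.
The library labelled as Ctnnb1 knock-out had 227 CPM, below the 4 mTBLC libraries, and a log2 fold change of -0.41 ± 0.90 (SE; edgeR, adjusted p = 0.817). In this comparison 0.00571% of genes passed, which is 1 gene, and no member was among them. Its 95% interval ran from -2.18 to 1.36, so a difference of up to several fold was not detectable with 1 library.
The library with ICG001, an inhibitor of the binding of beta-catenin to CBP, had 127 CPM, the lowest of these variants. The log2 fold change was -1.14 ± 0.95 (SE; edgeR, adjusted p = 0.427), and no member passed, where 13.7% of genes did. Zscan4b had the largest change, -2.40 ± 0.82 (adjusted p = 0.0696), with 6.06 CPM in the ICG001 library and 27.6 to 51.0 CPM in mTBLCs. There 4 of the 9 fibroblast markers fell, to a sum of 178 CPM, and their part was not tested. For the knock-out and ICG001 the test takes the spread from the other groups fitted with them.

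Blastomere-derived lines held an intermediate family level with another make-up. The sum was 132 and 109 CPM in the 4nM lines (passages 5 and 4) and 53.4 and 41.7 CPM in the 2-5nM lines, against 15.1, 17.4 and 1.05 CPM in mPSCs. All 4 lay above the mPSCs, and both 4nM libraries lay above both 2-5nM libraries. Against mPSCs the log2 fold change was 2.72 ± 0.68 (SE; edgeR, adjusted p = 0.0127), and 4 of 5 members rose, where 12.4% of genes did. The member that did not pass was Zscan4c, with a log2 fold change of 0.42 ± 0.72 (adjusted p = 0.701), while Zscan4b rose by 4.49 ± 0.65. The change of the sum was 2.15 without the mPSC library of 1.05 CPM and 3.52 without the one titled as passage 0, the ends of the range over the 7 fits without 1 library (adjusted p = 0.000886 to 0.0324). With the 2-5nM lines alone the change of the sum was 2.05 and lost the call (adjusted p = 0.0769).
Against mTBLCs of passages 6 to 19 (261 to 445 CPM) all 4 libraries were lower. The log2 fold change was -2.01 ± 0.58 (SE; edgeR, adjusted p = 0.0247), and 4 of 5 members fell, where 14.9% of genes did. Zscan4c fell by 3.78 ± 0.70 log2 units to 3.10 to 7.14 CPM, against 61.6 to 99.98 CPM in mTBLCs, while Zscan4b changed by -0.94 ± 0.46 (adjusted p = 0.144). The call of the sum was lost with the 4nM lines alone (-1.35, adjusted p = 0.235), without any 1 of the 4 blastomere-derived libraries (adjusted p = 0.0626 to 0.0925) and without mTBLC passage 14 or 19 (adjusted p = 0.0513 and 0.0637).

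The shares of the members within the family counts were compared next, a comparison chosen after the values had been seen. Zscan4c made up 5.41% and 5.33% of the family counts in the 4nM lines and 9.29% and 7.44% in the 2-5nM lines, against 22.5% to 27.6% in the 7 mTBLC libraries. Zscan4b made up 28.5% and 18.6% in the 4nM lines and 26.2% and 21.3% in the 2-5nM lines, against 9.55% to 11.9% in mTBLCs. The groups did not overlap for either member. In the blastomere-derived lines minus mTBLCs the mean share of Zscan4c differed by -17.6 percentage points and that of Zscan4b by 12.5 points. The difference was 7.13 points for Zscan4d, 3.55 for Zscan4f and -5.597 for Zscan4a. The libraries of each group are passages, and the comparison was chosen from these values, so the differences are a description. The shares of the members add up to the whole, so they are not separate results. In the other 83 libraries with at least 100 family counts, the share of Zscan4c was 11.5% to 39.9% and that of Zscan4b 0.575% to 15.1%, so the 4 blastomere-derived libraries lay outside both ranges. These lines differ from mTBLCs in strain, origin and medium together, and these cannot be told apart. Shares rest on how reads of near-identical members were assigned. The fibroblast markers summed to 3336 to 5042 CPM in the blastomere-derived lines, against 1182 to 1869 CPM in mTBLCs, with none of the 9 at 0, and their part in the level of the family was not tested.

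**Figure D3:**
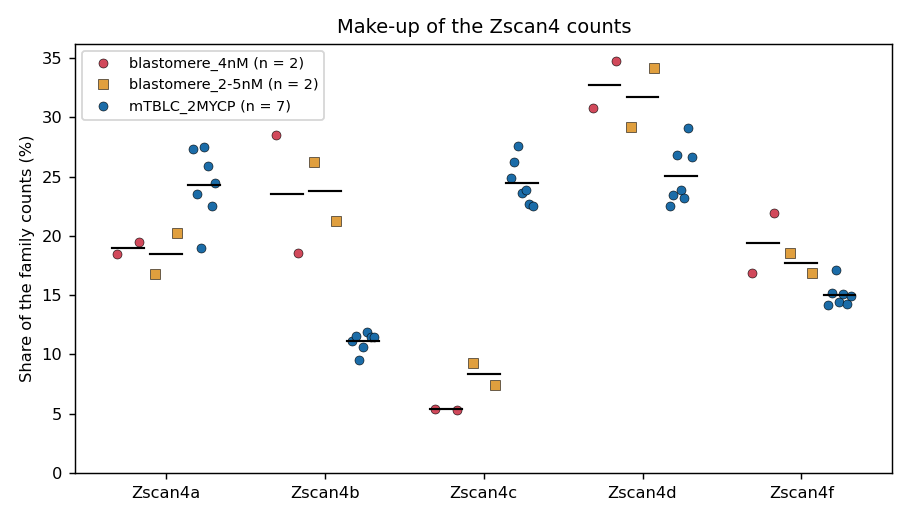
Share of each Zscan4 member in the family counts (vertical axis, in %) for the blastomere-derived lines of both titles and for mTBLCs in 2MYCP, with 1 point per library and a black bar at the group mean. Zscan4c lies at 5.33% to 9.29% in the blastomere-derived lines and at 22.5% to 27.6% in mTBLCs, and Zscan4b at 18.6% to 28.5% in the blastomere-derived lines and at 9.55% to 11.9% in mTBLCs.

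In ZHBTc4 cells in 2MYCP with doxycycline the family was high at passages 1 and 2, near 0 at passages 3 and 4, and high again at passage 12. Pou5f1, the gene that doxycycline silences, stood at 16.7, 5.31, 0.192, 0.716 and 1.07 CPM at passages 1, 2, 3, 4 and 12, against 620 CPM in ZHBTc4 cells in S/L. The family sum was 232, 97.1, 1.199, 0.636 and 153 CPM at the same passages. Passages 3 and 4 thus had 25 and 16 family counts, and passage 12 lay between passages 1 and 2. Over passages 1 to 4, against passages 1, 2 and 4 of 2MYCP (156, 229 and 202 CPM), the log2 fold change was -1.23 ± 1.47 (SE; edgeR, adjusted p = 0.560), and no member passed, where 25% of genes did. With passages 1 and 2 alone it was -0.26, and with passages 3 and 4 alone -7.75. This split was chosen after the values had been seen, so it describes them and is no test of them.
Without doxycycline, the 2MYCP library of passage 12 had 36.6 CPM, and its Pou5f1 was 86.6 CPM. Its 4 trophectoderm markers summed to 4686 CPM, against 1664 to 3406 CPM in 2MYCP with doxycycline and 30.1 to 74.8 CPM in mTBLCs. In the test above, over passages 1 to 4 with doxycycline, 4 of 4 pluripotency genes fell and 2 of 4 trophectoderm genes rose. Of all genes 25% passed there in either direction, and the part of these markers in the family's level was not tested. In S/L the family had 58.7 CPM with doxycycline and 195 CPM without it, with Pou5f1 at 155 CPM with doxycycline and 620 CPM without it. The 2MYC libraries of passages 2 and 3 had 7.69 and 12.9 CPM, the first from a library of 1.04 M counts with 8 family counts. The S/L pair and the 2MYCP pair at passage 12 have 1 library on a side, and the 2MYC libraries entered no test.

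Over the hours the family fell in all 3 media, along different paths. In SFH it stood at 619 CPM at 0 h and 600 CPM at 4 h, dipped to 304 CPM at 12 h, and reached its highest value, 647 CPM, at 20 h. From 28 to 60 h it was 320 to 528 CPM, from 64 to 76 h 171 to 237 CPM, and from 80 h it dropped by steps to 60.2 CPM at 92 h and 48.8 CPM at 96 h. In S/L it was 507 to 539 CPM from 0 to 12 h, with its highest value at 8 h, 368 to 420 CPM from 16 to 36 h and 270 to 435 CPM from 40 to 60 h. The libraries of 68, 88 and 92 h then had 95.1, 92.6 and 98.8 CPM, and those of 72, 76 and 80 h 172, 218 and 217 CPM. All 6 libraries after 60 h lay below the earlier ones, and their order in time was not steady. In NTF the course began lower, with 151, 82.4, 76.5, 60.8, 45.7, 9.88 and 34.1 CPM at 0, 4, 10, 24, 48, 72 and 96 h.

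**Figure D4:**
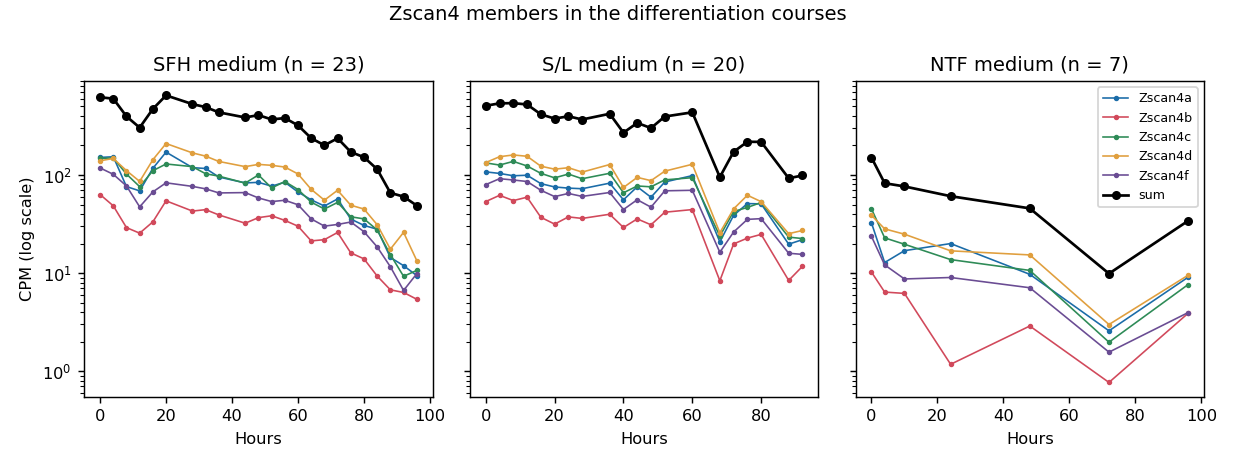
CPM on a log scale (vertical axis) of each Zscan4 member (coloured) and of the family sum (black) against hours (horizontal axis) in SFH, S/L and NTF medium, with 1 point per library. The sum is 48.8 CPM at 96 h in SFH, 98.8 CPM at 92 h in S/L and 34.1 CPM at 96 h in NTF, against 619, 507 and 151 CPM at 0 h.

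Along the fitted curves the log2 fold change of the family sum at 92 h against 0 h was -2.91 ± 0.20 in SFH (SE; edgeR, adjusted p = 8.9e-13) and -2.39 ± 0.37 in S/L (adjusted p = 2.39e-05). At 96 h against 0 h in NTF it was -1.963 ± 0.57 (adjusted p = 0.0214). The size of the NTF change rests on its last libraries. It was -4.37 without the library of 96 h, where the curve runs on past 72 h, and -1.49 without that of 72 h, the ends of the range over the 7 fits without 1 library (adjusted p = 0.00362 to 0.0427). All 5 members fell in SFH, where 19.7% of genes did, and all 5 in S/L, where 19.3% did. In NTF 3 of 5 fell, where 15.3% of genes did, and the values of Zscan4a (-1.67, adjusted p = 0.0722) and Zscan4b (-1.25, adjusted p = 0.237) did not pass. In SFH the largest change was that of Zscan4c (-3.17 ± 0.22) and the smallest that of Zscan4d (-2.49 ± 0.23). Zscan4d made up 43.2% of the family counts at 92 h, against 22.5% at 0 h, while the libraries of 88 and 96 h had 26.7% and 27.5%, so the library of 92 h stood apart.
Without the S/L libraries of 68, 88 and 92 h, an alternative chosen after the values had been seen, the S/L change was -1.78 (adjusted p = 0.00111). The fibroblast markers fell too, 9 of 9 in SFH and NTF and 8 of 9 in S/L, with a sum of 45.5 CPM at 92 h and 265 CPM at 0 h in SFH, and of 15.1 CPM at 92 h and 96.7 CPM at 0 h in S/L. The primitive endoderm genes Gata6, Gata4 and Sox17 all rose in SFH (median log2 fold change 4.64) and in S/L (3.57), and Gata4 alone of the 3 rose in NTF. Of 4 pluripotency genes 4 fell in SFH, 3 in NTF and none in S/L. Of 4 trophectoderm genes 1 rose in SFH, and 2 fell in S/L and in NTF. Beside these counts, 41.2% of all genes passed in either direction in SFH, 40.5% in S/L and 32% in NTF. The part of these cell types in the family's change was not tested.
At the 18 hours sampled in both courses, SFH was above S/L at 10 and below it at 8. The change by 92 h in SFH against that in S/L differed by -0.48 ± 0.42 log2 units for the sum (SE; edgeR interaction test, adjusted p = 0.523), with a 95% interval of -1.30 to 0.35. No member passed that test, where 11.9% of genes did.

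The derived cell types held little Zscan4 RNA. TELC had 47.4, 2.75 and 1.30 CPM at passages 0, 1 and 2, against 261 to 445 CPM in mTBLCs of passages 6 to 19. PreLC had 14.1, 20.6 and 0.588 CPM at the same passages. Both blastoid libraries, with 8.45 and 11.6 CPM, lay within the PreLC range, and none of these 8 libraries reached the mTBLC range. Against mTBLCs the log2 fold change of the sum was -3.91 ± 1.19 in TELC (SE; edgeR, adjusted p = 0.0224), -4.41 ± 1.22 in PreLC (adjusted p = 0.0165) and -4.86 ± 1.501 in blastoids (adjusted p = 0.0493). All 5 members fell in TELC, where 17.4% of genes did, and all 5 in PreLC, where 16.9% did. In blastoids 3 of 5 fell, where 7.48% of genes did, and Zscan4d (-5.17, adjusted p = 0.0537) and Zscan4b (-5.04, adjusted p = 0.0619) did not pass.
These calls rest on few libraries. The TELC call was lost without passage 1 or 2 (adjusted p = 0.0599 and 0.0548), while without passage 0 it held at -6.82, and the blastoid call was lost without any 1 library (adjusted p = 0.0769 to 0.254). The E3.5 blastocyst library had 6 family counts. In PreLC the range over the 7 fits without 1 library was -5.16 (without passage 1) to -3.85 (without passage 2), with adjusted p = 0.0253 to 0.0484. Of the 9 fibroblast markers 7 fell in blastoids, 2 in PreLC and none in TELC. Their sum was 22.1 and 19.3 CPM in blastoids, 19.3, 18.99 and 560 CPM in PreLC and 394, 521 and 1609 CPM in TELC at passages 0, 1 and 2, against 1182 to 1869 CPM in mTBLCs. Of the 3 primitive endoderm genes 3 rose in PreLC and 2 each in TELC and blastoids, and of the 3 trophectoderm genes tested 2 rose in each of these cell types. Of 4 pluripotency genes 3 fell in TELC and in PreLC and 4 in blastoids. The share of all genes that rose is not given here, so no excess is read from the counts of markers that rose. The part of these markers in the family's level was not tested.

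In embryoid bodies the family was low from day 10 on. The sum was 8.92, 137, 0.632 and 0.229 CPM at the labelled days 3, 8, 10 and 12 from mTBLCs, against 15.3, 1.28, 1.54 and 0.930 CPM from TC1 cells. In both sets 1 library stood far above the others, the one labelled day 8 among mTBLC bodies and the one labelled day 3 among TC1 bodies, and both were the libraries with the highest Pou5f1 of their set (944 and 1608 CPM). The log2 fold change with day as a block was 0.06 ± 1.85 (SE; edgeR, adjusted p = 1.0), and no member passed. In this comparison 0% of genes passed in edgeR, 367 had an unadjusted p under 0.05, and DESeq2 called 8. Without the libraries labelled day 8 the change was -1.23 (edgeR, adjusted p = 0.772), and without those labelled day 3 it was 1.32 (adjusted p = 0.928). The library titled EB-TSC had 17.8 CPM.

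**Figure D5:**
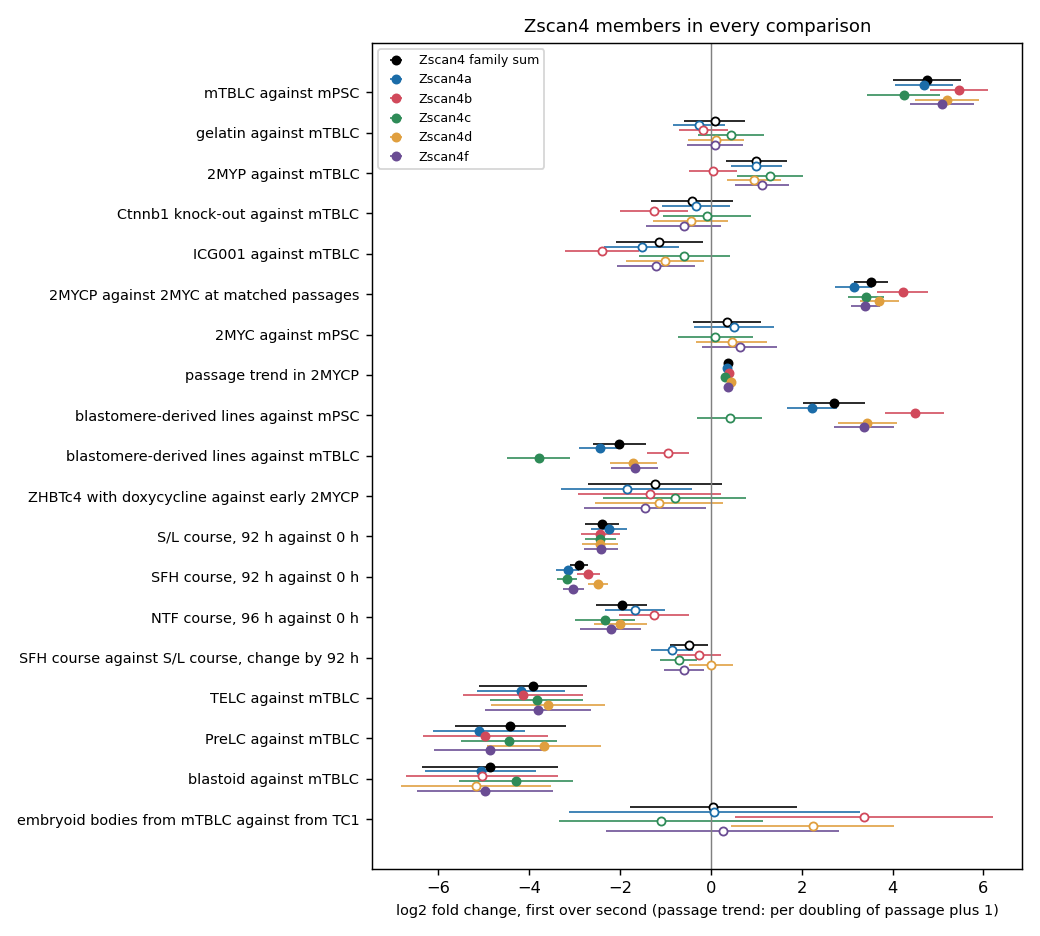
Log2 fold change (horizontal axis) with its SE for each Zscan4 member and the family sum in each comparison (vertical axis), filled where the edgeR adjusted p was under 0.05 and open where it was not. The family sum lies at 4.76 for mTBLCs against mPSCs and at -4.86 for blastoids against mTBLCs, and Zscan4c and Zscan4b part in the blastomere-derived lines.

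The 5 members varied together. Over the 104 libraries Spearman's rho between 2 members was 0.933 to 0.983, a description of libraries that share culture and depth and of genes that share reads. By their role near the family, other genes of the 2-cell-like state were counted next, from lists chosen with earlier results of these data known.

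Companion genes of the 2-cell-like state rose in mTBLCs and fell in the courses, as the family did. Of 26 listed companions 23 were tested in mTBLCs against mPSCs, where 20 rose and 1 fell, with a median log2 fold change of 5.04, beside 0.03 over all genes. Zfp352, a zinc finger gene of the 2-cell embryo, rose by 5.24 ± 0.81 (SE; edgeR, adjusted p = 0.00193), Tcstv3 by 5.79 ± 0.76, BB287469, with the largest change of the list, by 7.01 ± 0.84, Usp17lc, of the deubiquitinase genes, by 5.15 ± 0.76, and Tcstv1 by 2.90 ± 0.84. The companion that fell was Pif1, a DNA helicase (-0.96 ± 0.29, adjusted p = 0.0391). In 2MYCP against 2MYC 15 of 21 rose and none fell (median 3.01, all genes 0.02), and in 2MYC against mPSCs none of 10 passed. With passage in 2MYCP, where all 5 Zscan4 members rose, 3 of 22 companions did (median slope 0.28, all genes 0.0079), beside 4.89% of all genes.
In the courses 21 of 23 companions fell in SFH (median -3.14, all genes 0.0030), 22 of 23 in S/L (median -2.41, all genes 0.0088) and 19 of 23 in NTF (median -3.42, all genes -0.0033). Against mTBLCs 12 of 21 fell in TELC, 14 of 21 in PreLC and 9 of 21 in blastoids, and none rose. The shares of all genes that fell were 17.4%, 16.9% and 7.48%. In the blastomere-derived lines 16 of 22 rose against mPSCs and none fell, where 12.4% of all genes rose. Against mTBLCs 14 of 22 fell in these lines, with Usp17lc at -4.42 ± 0.68, while Pif1 rose by 1.45 ± 0.22. There 14.9% of all genes fell. In the single ICG001 library 2 of 23 companions passed, both higher, and in 2MYP 1 of 23 did, also higher. Both shares are below those of all genes, 13.7% for ICG001 and 6.31% for 2MYP.

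Of the genes known to switch the family on, Dux moved with it in mTBLCs. It stood at 1.97 to 3.48 CPM in mTBLCs of passages 6 to 19, against 0.0749 to 0.412 CPM in mPSCs, a log2 fold change of 3.92 ± 0.65 (SE; edgeR, adjusted p = 0.00254). In the blastomere-derived lines it had 1.23 to 2.83 CPM, higher than in mPSCs (3.57 ± 0.62, adjusted p = 0.00203). Against mTBLCs, where the family sum fell, Dux in these lines changed by -0.34 ± 0.43 (edgeR adjusted p = 0.585). Dux also did not pass with passage in 2MYCP (slope 0.37 ± 0.21, edgeR adjusted p = 0.283) or in NTF (-0.75 ± 1.59, adjusted p = 0.748). The 2MYC libraries had 0.141 to 1.31 CPM of Dux, and the change in 2MYCP against 2MYC did not pass (1.74 ± 0.80, adjusted p = 0.186). At these levels Dux rests on few counts, and 37 of 104 libraries had under 10. Of 9 activators tested in mTBLCs against mPSCs, Dux and Nelfa (0.75 ± 0.22, adjusted p = 0.0361), a subunit of the negative elongation factor, rose, and Dppa4, a chromatin protein of early embryos (-0.84 ± 0.21, adjusted p = 0.0176), fell. Its partner Dppa2 changed by 0.42 ± 0.31 (edgeR adjusted p = 0.367) there and rose in 2MYCP against 2MYC (1.38 ± 0.23, adjusted p = 0.0107). Of all genes 9.53% rose in mTBLCs against mPSCs, and the share that fell is not given here. In the courses 7 of 8 activators fell in SFH, with Nr5a2 at -4.49 ± 0.31 and Tbx3 at -2.41 ± 0.16, while Dux changed by -1.82 ± 0.82 (adjusted p = 0.0766). In S/L 5 of 9 fell, Dux among them (-1.14 ± 0.44, edgeR adjusted p = 0.0425), and Dppa4 rose (0.38 ± 0.12). Of all genes 19.7% fell in SFH and 19.3% in S/L. Dux was at 0 counts in 13 libraries, whose family sum ran from 0.229 to 152 CPM (median 1.54), and at 1 CPM or more in 56, whose family sum ran from 39.5 to 664 CPM (median 319). The library of 152 CPM without a Dux count was SFH at 80 h.

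Genes known to hold the 2-cell-like state down were counted as repressors. Of 25 repressors none rose and 4 fell in mTBLCs against mPSCs, led by Chaf1b, a subunit of the chromatin assembly factor CAF-1 (-1.83 ± 0.30), and Lin28a, an RNA-binding protein (-1.52 ± 0.29). The median was 0.06, beside 0.03 over all genes. The share of all genes that fell in this comparison is not given here, so the 4 are not read as more than that share. Chaf1a, the large subunit of CAF-1 (0.19 ± 0.18), Trim28, a corepressor (0.14 ± 0.23), Rif1, a protein of replication timing (0.52 ± 0.56), and Dnmt1, the maintenance DNA methyltransferase (0.08 ± 0.28), did not pass (edgeR adjusted p = 0.490 to 0.869). Rif1 ran from 36.1 to 462 CPM over the 3 mPSC libraries. In SFH 10 of 25 rose and 6 fell, with Lin28a at 2.63 ± 0.23 and Trim28 at -1.10 ± 0.13, and in S/L 6 rose and 5 fell. In NTF 10 rose and 2 fell. Of all genes 41.2% passed in either direction in SFH, 40.5% in S/L and 32% in NTF.

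Among 10 genes of telomeres and meiotic recombination, 9 were tested in mTBLCs against mPSCs. None rose, and Smc1b, a meiotic cohesin subunit (-2.18 ± 0.51, adjusted p = 0.0134), and Dmc1, a meiotic recombinase (-1.86 ± 0.45, adjusted p = 0.0152), fell. The median was 0.04, beside 0.03 over all genes. For these genes too the share of all genes that fell is not given here, so no excess is read from the count. In the S/L course Smc1b (2.62 ± 0.41) and Dmc1 (1.54 ± 0.24) rose among 5 of 9, and 1 fell. Of all genes 40.5% passed there in either direction, so no excess is read from this count. In SFH Smc1b rose by 1.81 ± 0.50, and Tet2, which oxidises methylated cytosine in DNA, fell by 2.71 ± 0.27. In NTF the values of Smc1b (0.03 ± 0.77) and Dmc1 (0.0054 ± 0.53) did not pass (edgeR adjusted p = 0.984 and 0.995). Against mTBLCs Smc1b fell in TELC (-1.76 ± 0.65, adjusted p = 0.0496) and in PreLC (-2.73 ± 0.66, adjusted p = 0.00911), and Dmc1 passed in neither. Spo11, which cuts DNA at the start of meiotic recombination, had at most 1.36 CPM in any library and was too low for all but the embryoid body test.

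The genes whose level followed the family sum most closely were found among 14189 genes with a mean of at least 1 CPM, by Spearman's rho over the 104 libraries. The 10 highest had rho of 0.912 to 0.956 over libraries and 0.863 to 0.949 over the 24 group means. They fall into 3 groups by chromosome. On chromosome 12, within 807 kb, lie Gm2016 (0.956), Gm5662 (0.941), Gm8300 (0.941) and Gm5039 (0.940). On chromosome 4 are Gm13119 (0.949), Pramef25 (0.939) and Gm12794 (0.916), which RefSeq now calls Pramel31, Pramel16 and Pramel19. On chromosome 7, away from the Zscan4 genes, are Usp17le (0.935), Usp17lc (0.918) and Usp17lb (0.912). The libraries share cultures and depth, and several of these genes have close paralogs. Among the named genes, Zfp352 ranked 29 (rho 0.850), Nelfa 30 (0.850), Tcstv3 37 (0.831), Dux 52 (0.806), Dppa2 97 (0.741), Dppa4 451 (0.614) and Pou5f1 570 (0.594).
Within single courses the order was not the same. Over the 23 SFH libraries rho with the family sum was 0.946 for Usp17lc, 0.954 for Tcstv3, 0.875 for Pou5f1 and 0.401 for Dux. Over the 20 S/L libraries it was 0.947 for Usp17lc, 0.928 for Tcstv3, 0.717 for Dux and 0.268 for Pou5f1.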

How the data were processed

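Libraries were prepared with the VAHTS Universal V8 kit, per the labels. The deposited tables hold raw counts per gene symbol. The submitters' processing notes name featureCounts, HISAT2 and Trimmomatic as tools, and mm10 and hg38 as builds, without saying which build served which step. Versions, the annotation and the treatment of reads that map to several places are not given in the sources used here. There were 18 tables, and the rows whose names had become dates, 26 in each, were left out. Low counts were even in a median of 81.9% of genes, so counts were also halved.

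Groups follow the labels. Counts and an added row of the family sum were tested over all genes by the quasi-likelihood test of edgeR (version 4.0.16, R 4.3.3) after its expression filter and TMM scaling, with Benjamini-Hochberg adjusted p under 0.05. The SE of a change is its size divided by the root of the F statistic. Courses were fitted as splines of hours. Where libraries of 2 groups shared a passage or day, passage or day was a block in the 2MYCP against 2MYC and embryoid body fits. In simulated data 4-fold changes were found for 60% of genes in mTBLCs against mPSCs and for 29% in ZHBTc4. For 2-fold changes these shares were 4% and 2%. DESeq2 1.42.0 was an alternative. Comparisons against the same mTBLC or mPSC libraries share controls. Shares of family counts used libraries with at least 100 such counts. Members and lists were chosen with earlier results of these data known. Genes were named by a rule (members, 12 fixed genes, at most 3 members of a list in each direction, those that passed by the largest change, and the 10 genes most like the sum), of which the text names a selection.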

Additional observations from a re-analysis of the deposited data

Results flagged for a closer look

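Among groups of 4 to 10 libraries, 36 combinations of a group with a member or the sum were examined, and 13 had 1 library far from the others; chance flags about 1 in 20. The 13 come from 3 libraries, and the members of the family share reads, so they are not 13 separate cases. These groups hold different passages or days, so their libraries are not plain replicates. In 2MYC, passage 1 stood above the other passages, with 39.5 CPM for the sum, 14 CPM for Zscan4a, 3.66 CPM for Zscan4b and 8.10 CPM for Zscan4d. In TC1 embryoid bodies, the library labelled day 3 stood apart with 15.3 CPM for the sum, 5.84 CPM for Zscan4a and 0.931 CPM for Zscan4b. In mTBLC embryoid bodies, the library labelled day 8 stood apart in the sum, at 137 CPM, and in every member, with 24.1 CPM for Zscan4a, 11.2 CPM for Zscan4b, 34.8 CPM for Zscan4c, 40.9 CPM for Zscan4d and 26.0 CPM for Zscan4f. Its high Pou5f1 and near absence of fibroblast markers go against its labelled place after day 3, and its part in the comparison of embryoid bodies is given by leaving out day 8.

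Of the libraries outside all tests, 5 had a family sum above the highest mPSC library (17.4 CPM). They were ZHBTc4 in S/L (195 CPM), ZHBTc4 in 2MYCP with doxycycline at passage 12 (153 CPM), ZHBTc4 in S/L with doxycycline (58.7 CPM), ZHBTc4 in 2MYCP at passage 12 (36.6 CPM) and EB-TSC (17.8 CPM).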

How the results depend on the processing

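Values are log2 fold changes, and the cause of each change below was not tested. Of the settings tried for the family sum besides leaving out libraries, 4 changed direction or side of the threshold, as did 21 of 100 fits that left out 1 library, passage or day. The call was lost with the 2-5nM lines alone against mPSCs (2.05) and the 4nM lines alone against mTBLCs (-1.35), and DESeq2 turned the embryoid body value (-0.18). ZHBTc4 passages 3 and 4 alone (-7.75) crossed the threshold, a split chosen after the values had been seen and so no test of them. With 1 library (1 day for embryoid bodies) left out the sum ranged from -0.40 to 0.45 for gelatin, -0.20 to 1.07 for 2MYC against mPSCs, 0.34 to 0.43 for the passage slope, -2.11 to -1.86 for blastomere-derived lines against mTBLCs, -6.82 to -3.38 for TELC, -5.05 to -4.68 for blastoids and -1.23 (without day 8) to 1.32 for embryoid bodies.

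Members turned sign in DESeq2 for embryoid bodies (Zscan4a -0.45, Zscan4f -0.62), against passages 6 and 8 alone for gelatin (Zscan4b 0.14), with ZHBTc4 passages 1 and 2 alone (Zscan4c 0.18), and for Zscan4d in SFH against S/L with RLE (-0.023), DESeq2 (-0.021), halved counts (-0.0082) and splines of 2 (-0.24) and 4 df (-0.018). With 1 library left out, gelatin gave -0.86 to 0.17 (Zscan4a), -0.35 to 0.0026 (Zscan4b), -0.17 to 0.87 (Zscan4c), -0.38 to 0.47 (Zscan4d) and -0.54 to 0.53 (Zscan4f). 2MYC against mPSCs gave -0.27 to 0.91 (Zscan4a), -0.48 to 1.196 (Zscan4c) and -0.11 to 1.32 (Zscan4d). Embryoid bodies without 1 day gave -1.47 to 0.93 (Zscan4a), -3.15 to 1.60 (Zscan4c) and -1.93 to 0.85 (Zscan4f). Zscan4b in 2MYP gave -0.24 to 0.29, and Zscan4c -0.10 to 0.12 in the Ctnnb1 knock-out and -0.20 to 1.86 in blastomere-derived lines against mPSCs.

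Without the replicate block by passage the 2MYCP against 2MYC change was 3.35, without the block by day that of embryoid bodies was 3.09 (edgeR adjusted p = 0.993; Zscan4c 2.73), and with a block of passages 1, 2 and 4 that of ZHBTc4 was -2.002 (adjusted p = 0.418).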
